A study of Saccharomyces cerevisiae with 6 samples.

Results

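The genes described here are the 8 core histone genes of budding yeast (Saccharomyces cerevisiae), the histone variant gene HTZ1 and the linker histone gene HHO1, 10 of the 6282 genes on the arrays. They were chosen by name: HTA1 (YDR225W) and HTA2 (YBL003C) for histone H2A, HTB1 (YDR224C) and HTB2 (YBL002W) for H2B, HHT1 (YBR010W) and HHT2 (YNL031C) for H3, HHF1 (YBR009C) and HHF2 (YNL030W) for H4, with HTZ1 (YOL012C) and HHO1 (YPL127C). All 10 had a row, and all passed the filter of at least 2 values in each strain, so all were tested.

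Each of the 6 arrays was a 2-colour hybridisation of RNA from an aerobic culture and a hypoxic culture of the same strain. Both cultures were wild type on 3 arrays, and both carried a deletion of HAP1, which encodes a heme-responsive activator of respiratory and sterol genes, on the other 3. Replicates were separate cultures grown on different days. In each strain the dyes were swapped on replicate 2, where Cy3 marked the hypoxic RNA; on the others Cy5 did. The sources used here give no strain background, oxygen level or length of hypoxia. Values are log2 ratios of hypoxic over aerobic RNA, so a negative value means less of that messenger RNA in the hypoxic culture.

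Histones package DNA into nucleosomes, each an octamer of H2A, H2B, H3 and H4. In yeast each core histone is encoded by a pair of genes, and the genes lie in divergent pairs that share a promoter region: HTA1 with HTB1, HTA2 with HTB2, HHT1 with HHF1 and HHT2 with HHF2. Core histone genes are transcribed as cells copy their DNA, under activators such as Spt10 and the SBF factor. Outside that window most of them, but not all, are under repression by the Hir proteins and Asf1. Core histone messages of yeast carry poly(A) tails, unlike those of animals. HTZ1 encodes the H2A.Z variant, which the SWR1 complex places near promoters, and HHO1 encodes the yeast H1 linker histone.

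Facts of the whole set of arrays bear on how firmly the histone values can be read. Between 15 and 678 values were missing per array, most on hap1 deletion replicate 1, and the correlations between arrays over all genes ran from 0.0971 to 0.575. The array medians lay between -0.07 and -0.02. Of the oxygen-regulated genes read to check the sign of the ratio, HEM13, a heme enzyme known to be induced without oxygen, was higher in both strains (3.06 and 1.97, called in 4 and 3 of the 6 fits that left out an array), and CYC1, the main cytochrome c, was lower in wild type (-4.85) and had a mean of 0.04 in the deletion strain, where it did not pass. TIR1, an anaerobic cell wall protein, was higher in wild type (2.44, called in 2 of those fits) and COX5A, an aerobic cytochrome oxidase subunit, was lower (-1.79, called in 0). With a term for the dye neither TIR1 nor COX5A was called in wild type. COX5B, another of the 8 genes read, was higher over both strains (1.46, limma adjusted p = 0.0340, called in 1 of those fits). AAC3, also read, passed none of the limma tests after adjustment. Against the sign they are known for, ANB1 and CYC7, both described as hypoxic genes, were lower in wild type (-1.04 and -2.15), calls that were lost in every fit without an array. The HAP1 spot read 0.84, 0.50 and 1.10 in wild type and 0.47, 0.56 and 0.72 in the deletion strain, which is no check of the deletion, since a deletion strain was hybridised only against itself. Of 6 markers of a cells, 4 of alpha cells and 5 of meiosis, MFA2, an a-factor gene, fell in the deletion strain (-1.20) and STE3, the a-factor receptor, rose over both strains (0.96), calls that were lost in each of the 6 fits that left out an array. The means of all 6 a cell markers lay above 0 in wild type (0.27 to 2.14) and below 0 in the deletion strain (-1.20 to -0.40). Their strain differences ran from -3.25 to -0.70, and none passed limma's test. At an unadjusted p under 0.05 there were 4 of the 6, beside 7.97% of all genes. The part of these markers in the histone ratios was not tested. A fixed list of 11 stress and stationary phase genes had array medians between 0.62 and 3.71.

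Of the 8 core histone genes, 2 fell in hypoxia when both strains were averaged, HTA1 by 1.61-fold and HTB2 by 1.77-fold. Their 95% intervals reached falls of 2.08-fold and 2.53-fold. Over the 6 arrays the means of all 8 core genes lay below 0, from -0.82 for HTB2 to -0.06 for HTB1, with a median of -0.53 against -0.04 for all 6208 genes tested. HTA1 and HTB2 passed limma's moderated test on that mean, and the other 6 core genes, HTZ1 and HHO1 did not. Those 2 falls among 10 genes stand beside 9.52% of all genes called lower in the same test, 7.44% called higher and 17% called in either direction. Of all genes, 54.3% had a mean below 0. In wild type alone and in the deletion strain alone none of the 10 genes passed (limma, Benjamini-Hochberg adjusted p from 0.108 to 0.929 and from 0.0798 to 0.906), beside 4.24% of all genes called in wild type (2.32% lower, 1.92% higher) and 4.32% in the deletion strain (1.82% lower, 2.5% higher). At an unadjusted p under 0.05 there were 3 of the 10 in wild type, HTA1, HTA2 and HTB2, and 1, HTA1, in the deletion strain. Beside these stood 24.1% of all genes in wild type and 24.7% in the deletion strain. Over both strains there were 4 of the 10, HTA1, HTA2, HTB2 and HHT1, beside 34.5% of all genes.

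**Figure D1:**
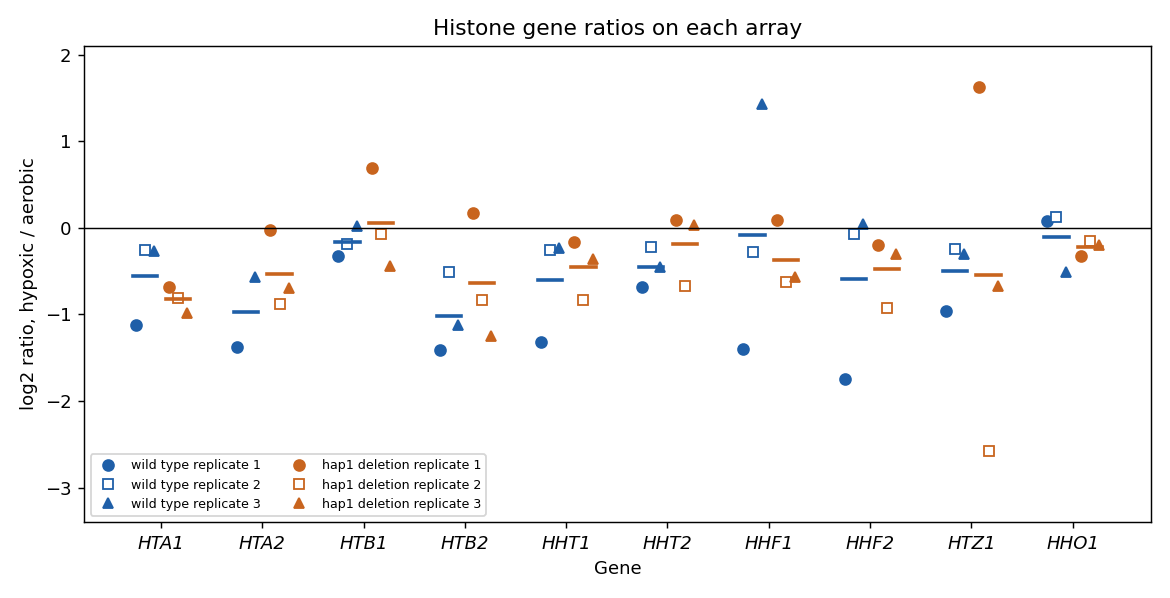
Log2 ratios of hypoxic over aerobic RNA (vertical axis) for the 10 histone genes (horizontal axis) on each of the 6 arrays, with wild type in blue and hap1 deletion in orange, a symbol for each replicate, open symbols where the hypoxic RNA carried Cy3, and a bar at each strain's mean. HTA1 and HHT1 lie below 0 on all 6 arrays, and the widest spread is that of HTZ1, from -2.58 to 1.63.

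Among the H2A genes, HTA1 read -1.13, -0.26 and -0.27 on wild-type replicates 1 to 3 and -0.68, -0.81 and -0.98 on the deletion replicates. All 6 values were below 0, and the strains overlapped, since wild-type replicate 1 was the lowest and the other wild-type arrays were the highest. The mean over both strains was -0.69 with a standard error (SE) of 0.16, a 1.61-fold fall (limma adjusted p = 0.0298, 95% interval -1.06 to -0.32, lower on 6 of 6 arrays). HTA2, the second H2A copy, read -1.38 and -0.57 on wild-type replicates 1 and 3, with no value on replicate 2, and -0.03, -0.88 and -0.70 in the deletion strain. Its mean, -0.76, missed the threshold (SE 0.21, limma adjusted p = 0.0571, 5 arrays), and all 5 values lay below 0.

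The H2B copies gave different readings. HTB2 read -1.41, -0.51 and -1.12 in wild type and 0.17, -0.83 and -1.24 in the deletion strain. It was low on 5 of 6 arrays and above 0 only on hap1 deletion replicate 1, and its mean of -0.82 ± 0.22 (SE) was a 1.77-fold fall (limma adjusted p = 0.0442, 95% interval -1.34 to -0.31). HTB1 read -0.33, -0.19 and 0.02 in wild type and 0.69, -0.08 and -0.44 in the deletion strain. These values lie on both sides of 0 in each strain, and their mean, -0.06, missed the threshold (SE 0.17, limma adjusted p = 0.846). The 95% interval of HTB1 ran from -0.46 to 0.35, which leaves room for a fall of up to 1.37-fold.

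Both calls were lost in most fits that left out an array and in the fit with a dye term. HTA1 and HTB2 were each called in only 1 of the 6 fits that left out an array, the fit without hap1 deletion replicate 1 (adjusted p = 0.0460 and 0.0207), where HTA2 was called too (adjusted p = 0.0445). In the other 5 of these fits adjusted p ran up to 0.0916 for HTA1 and up to 0.131 for HTB2, with means from -0.76 to -0.54 and from -0.95 to -0.67. With a term for the dye the means were -0.65 for HTA1 and -0.79 for HTB2 close to those without it, and neither passed (adjusted p = 0.0750 and 0.0974). Centring the arrays on their medians left HTA1 called (-0.64, adjusted p = 0.0344) and not HTB2 (-0.77, adjusted p = 0.0519).

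Both H3 genes were below 0 on all wild-type arrays. HHT1 read -1.31, -0.26 and -0.24 in wild type and -0.17, -0.83 and -0.36 in the deletion strain, below 0 on all 6 arrays. Its mean was -0.53 ± 0.19 (SE) and did not pass (limma adjusted p = 0.0969). HHT2 read -0.68, -0.22 and -0.45 and then 0.09, -0.67 and 0.03. It was below 0 on 4 of 6 arrays, with a mean of -0.32 ± 0.15 (SE, limma adjusted p = 0.184). The copies encode the same H3 protein.

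The H4 genes varied most between the wild-type arrays. HHF1 read -1.40, -0.28 and 1.43 in wild type, so that replicates 1 and 3 lay at opposite ends, and 0.09, -0.63 and -0.57 in the deletion strain. The mean of -0.23 missed the threshold (SE 0.34, limma adjusted p = 0.672). HHF2 read -1.75, -0.07 and 0.04 in wild type and -0.20, -0.93 and -0.30 in the deletion strain. Only wild-type replicate 1 and hap1 deletion replicate 2 were lower than -0.5, and the mean of -0.54 ± 0.26 (SE) did not pass (limma adjusted p = 0.192). On wild-type replicate 3, HHF1 stood at the 97.1st percentile of all genes on the array while HHF2, which encodes the identical H4 protein, stood at the 55.3rd. Without that array the mean of HHF1 became -0.61 (adjusted p = 0.142), and without wild-type replicate 1 it was 0.10.

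The variant and linker histones gave no call. HTZ1 read -0.96, -0.24 and -0.30 in wild type. In the deletion strain it read 1.63, -2.58 and -0.67, which is the widest spread of the 10 genes: it was at the 96.3rd percentile of replicate 1 and at the 0.259th percentile of replicate 2. The mean of -0.52 had an SE of 0.48 (limma adjusted p = 0.476), and it lay between -1.06 and -0.01 when single arrays were left out. HHO1 read 0.08, 0.12 and -0.51 in wild type and -0.32, -0.15 and -0.20 in the deletion strain, all between -0.51 and 0.12. Its mean of -0.16 ± 0.13 (SE) did not pass (limma adjusted p = 0.417), and its 95% interval of -0.48 to 0.15 was the narrowest of the 10.

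**Figure D2:**
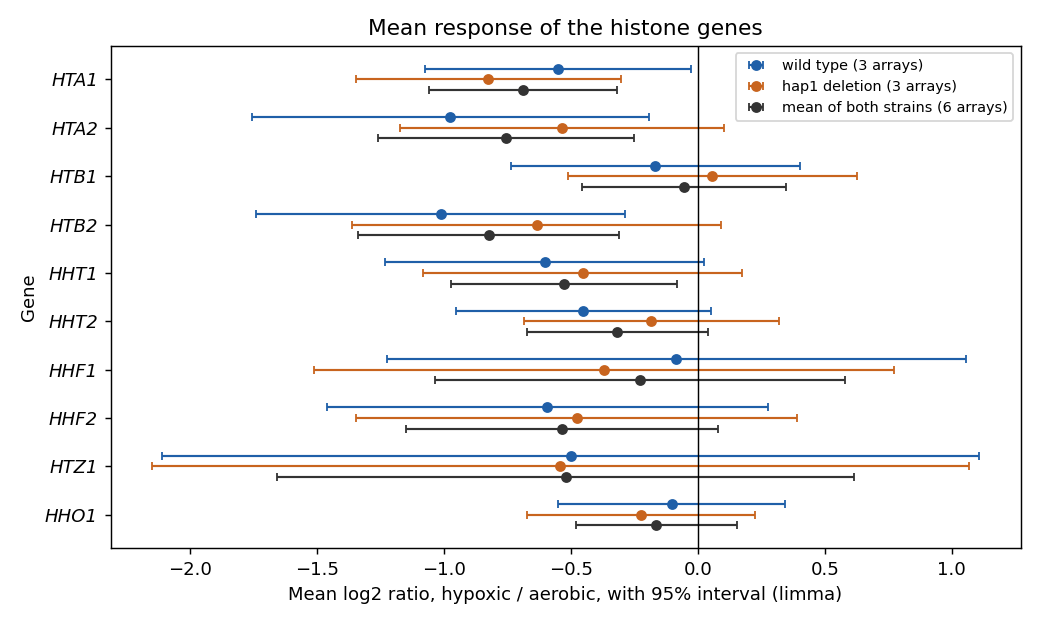
Mean log2 ratio of hypoxic over aerobic RNA with limma's 95% interval (horizontal axis) for each gene (vertical axis) in wild type (blue, 3 arrays, 2 for HTA2), in the hap1 deletion strain (orange, 3 arrays) and over both strains (black, 6 arrays, 5 for HTA2). The intervals over both strains leave out 0 for HTA1 (-1.06 to -0.32), HTA2, HTB2 and HHT1, of which HTA1 and HTB2 passed after adjustment, and include it for the other 6 genes. Of all genes, 34.5% had an unadjusted p under 0.05 in this limma test.

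In order of the mean over both strains, HTB2 (-0.82) and HTA2 (-0.76) were lowest, followed by HTA1 (-0.69), HHF2 (-0.54), HHT1 (-0.53), HTZ1 (-0.52), HHT2 (-0.32), HHF1 (-0.23), HHO1 (-0.16) and HTB1 (-0.06). The 95% intervals of all neighbours in this order overlapped, which for genes sorted by their means does not show whether they differ.

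The responses of the strains were compared next, to ask whether the histone genes depended on HAP1. None of the 10 genes was at an unadjusted p under 0.05 in the test of the difference, beside 7.97% of all genes. None passed after adjustment (limma, adjusted p from 0.805 to 0.993), beside 0.354% of all genes called (0.0483% lower and 0.306% higher in the deletion strain). The largest of these differences, hap1 deletion minus wild type, was 0.44 ± 0.41 (SE) for HTA2, with means of -0.98 ± 0.57 (SD, n = 2) and -0.53 ± 0.45 (SD, n = 3). For HTA1 the difference was -0.27 ± 0.31 (SE), with means of -0.55 ± 0.50 in wild type and -0.83 ± 0.15 in the deletion strain (SD, n = 3 each). For HTB2 it was 0.38 ± 0.43 (SE), with means of -1.01 ± 0.46 and -0.64 ± 0.73 (SD, n = 3 each). The intervals are wide: that of HTA1 ran from -1.01 to 0.47 and that of HTB2 from -0.65 to 1.41, so at this number of arrays a response of HTA1 up to 2.02-fold lower in the deletion strain, or of HTB2 up to 2.65-fold higher, cannot be told from none.

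Arrays of the same strain gave different histone readings. The median of the core genes was -1.35, -0.26 and -0.25 on wild-type replicates 1 to 3 and 0.03, -0.82 and -0.50 on the deletion replicates. On wild-type replicate 1 all 8 core genes lay below 0 and their median was at the 3.53rd percentile of the array, while on hap1 deletion replicate 1 only 4 of 8 lay below 0 and the median was at the 56.1st percentile. The lowest and the highest core median thus both came from replicate 1 arrays, with the hypoxic RNA in Cy5. On the arrays with the hypoxic RNA in Cy3, the replicate 2 arrays, the medians were -0.26 and -0.82, inside that range.

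The gene copies were then set against each other on the same array. HTB1 was higher than HTB2 on all 6 arrays, by 1.08, 0.32 and 1.14 in wild type and by 0.51, 0.76 and 0.80 in the deletion strain. The mean difference of the log2 ratios was 0.77 ± 0.32 (SD, n = 6), so that the hypoxic over aerobic ratio of HTB1 was 1.70-fold that of HTB2. An exact two-sided sign-flip permutation test gave p = 0.0313, the smallest that 6 arrays can give, and 0.125 after Benjamini-Hochberg adjustment over the 4 pairs, so the difference did not pass the adjusted threshold. HTA1 minus HTA2 averaged -0.06 ± 0.40 (SD, n = 5, exact permutation p = 0.813), HHT1 minus HHT2 -0.21 ± 0.29 (SD, n = 6, exact permutation p = 0.156) and HHF1 minus HHF2 0.31 ± 0.59 (SD, n = 6, exact permutation p = 0.219). Their adjusted values were 0.813, 0.292 and 0.292. Copies are close in coding sequence and their spots may share signal, which would draw their ratios together.

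By strain, HTB1 minus HTB2 averaged 0.85 ± 0.46 in wild type and 0.69 ± 0.16 in the deletion strain (SD, n = 3 each), and their values overlapped. HTA1 minus HTA2 averaged 0.28 ± 0.03 (SD, n = 2) in wild type and -0.29 ± 0.36 (SD, n = 3) in the deletion strain. The wild-type values, 0.25 and 0.30, lay above the 3 deletion values, which ran from -0.66 to 0.07, and this contrast between strains was not tested.

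The same differences were taken within the divergent pairs, as a description with no test, after the values had been seen. HTA1 was lower than its promoter partner HTB1 on all 6 arrays, by -0.80, -0.06 and -0.29 in wild type and by -1.37, -0.74 and -0.54 in the deletion strain, a mean of -0.63 ± 0.45 (SD, n = 6). HTA2 minus HTB2 averaged 0.18 ± 0.35 (SD, n = 5), HHT1 minus HHF1 -0.30 ± 0.69 and HHT2 minus HHF2 0.22 ± 0.53 (SD, n = 6 each), with values on both sides of 0 in each. Averaged over its genes, the HTA2-HTB2 locus was the lowest, at -0.80 ± 0.54 (SD, n = 5). HTA1-HTB1 had -0.37 ± 0.31, HHT1-HHF1 -0.38 ± 0.66 and HHT2-HHF2 -0.43 ± 0.47 (SD, n = 6 each).

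**Figure D3:**
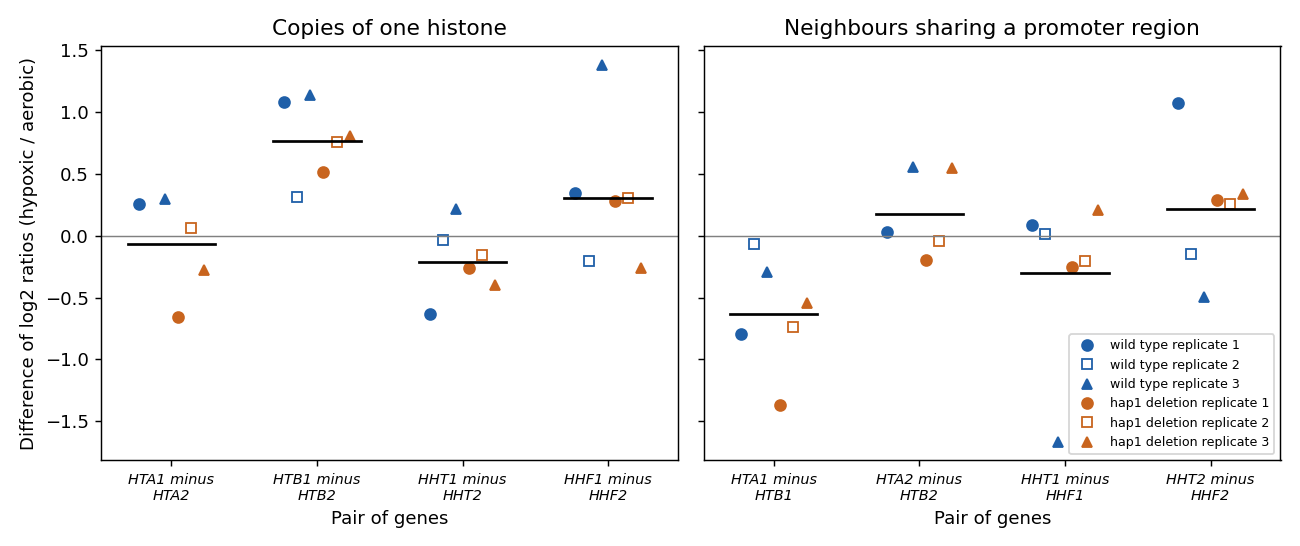
Differences of log2 ratios (vertical axis) on each array between the copies of a histone (left) and between neighbours that share a promoter region (right), with wild type in blue, hap1 deletion in orange, open symbols where the hypoxic RNA carried Cy3 and a black bar at the mean. HTB1 minus HTB2 is above 0 on all 6 arrays (mean 0.77) and HTA1 minus HTB1 below 0 on all 6 (mean -0.63), while the other pairs have values on both sides of 0.

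The chromosomal neighbours of the histone loci, taken as the nearest measured gene on each side in the R64 gene order, did not share 1 direction. ECM15, beside HTB2, was higher on all 6 arrays (mean 0.92 ± 0.13, SE, limma adjusted p = 0.00855) and kept that call in each fit that left out an array. NAN1, a factor of ribosomal RNA processing beside HHO1, was lower on all 6 arrays (mean -0.73 ± 0.14, SE, limma adjusted p = 0.0190), and was called in 2 of the 6 such fits. The other 10 neighbours did not pass. The calls of ECM15 and NAN1 stand beside the 17% of all genes called in either direction over both strains. Beside HTA1 and HTB1 stood ADK1, adenylate kinase, at -0.07 ± 0.15 (SE), and CRF1, a corepressor of ribosomal protein genes, at 1.74 ± 0.78 (SE), read on 5 arrays between -2.60 and 4.21.

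No regulator of the histone genes passed limma's test in wild type, in the deletion strain, over both or for their difference. At an unadjusted p under 0.05 there were 1, 1, 2 and 0 of them, beside 24.1%, 24.7%, 34.5% and 7.97% of all genes. The list of 11 tested regulators held the Hir corepressor (HIR1, HIR2, HIR3 and HPC2), the chaperones ASF1 and RTT106, the activator SPT10, the boundary protein YTA7 and the cell cycle factors SWI4, SWI6 and MBP1. Their medians were 0.03 in wild type, -0.07 in the deletion strain and -0.02 over both, against -0.04 for all genes. HIR3 read 1.53, 0.74 and -0.06 in wild type and 0.44, 0.36 and 0.34 in the deletion strain, a mean of 0.56 ± 0.20 (SE, limma adjusted p = 0.103). SWI4, the DNA-binding subunit of SBF, lay above 0 on all 6 arrays, between 0.16 and 0.95, with a mean of 0.47 ± 0.15 (SE, limma adjusted p = 0.0688). SPT10 had 0.06 ± 0.17 (SE).

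Of 14 tested histone chaperone and assembly genes, 1 rose and 1 fell over both strains, and 12 did not pass, with a median of -0.17, beside the 17% of all genes called in this test. The riser was RLF2, which encodes the large subunit of chromatin assembly factor 1, the chaperone that places H3 and H4 on newly copied DNA. It read 0.75, 0.65 and 0.38 in wild type and 2.07, 1.49 and 0.74 in the deletion strain, above 0 on all 6 arrays, with a mean of 1.01 ± 0.19 (SE, limma adjusted p = 0.0167). It was called in 3 of the 6 fits that left out an array. FPR4, a nucleolar prolyl isomerase that acts on histone tails, read -1.06, -1.52 and -1.14 in wild type and between -2.40 and -0.95 in the deletion strain, a mean of -1.51 ± 0.20 (SE, limma adjusted p = 0.00732), and was called in all 6 of those fits. Both were also called in the deletion strain alone, RLF2 in 1 and FPR4 in 3 of the 6 such fits, and RLF2 was not called there with the dye term (adjusted p = 0.0748). Neither was called in wild type alone, and their strain difference did not pass.

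Of 13 genes of the HTZ1 exchange complex none passed any of these limma tests, and the median over both strains was -0.18. In that test 3 were at an unadjusted p under 0.05, beside 34.5% of all genes. SWR1, its ATPase, had -0.08 ± 0.13 (SE) and SWC4 -0.16 ± 0.11 (SE). ARP6, an actin-related subunit, read between -1.89 and 0.17, with a mean of -0.85 ± 0.31 (SE, limma adjusted p = 0.0995). The centromeric H3 gene CSE4 and its partners SCM3 and PSH1 did not pass either, and CSE4 read 5.16 on wild-type replicate 2 and between -0.22 and 0.09 on the other 4 arrays with a value.

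Among 24 genes of histone acetylation and deacetylation, 3 fell over both strains, none rose and 21 did not pass, and among 15 of histone methylation 1 fell and 14 did not pass. NGG1, a subunit of the SAGA and ADA acetyltransferases, had -0.77 ± 0.18 (SE, limma adjusted p = 0.0402). SAS2, an H4 acetyltransferase, had -1.01 ± 0.17 (SE, limma adjusted p = 0.0175) and HOS2, a deacetylase, had -0.64 ± 0.14 (SE, limma adjusted p = 0.0274). SET2, the H3 methyltransferase of transcribed genes, had -0.43 ± 0.11 (SE, limma adjusted p = 0.0436). The lists had medians of -0.15 and -0.24. Their calls, 3 of 24 and 1 of 15, stand beside 9.52% of all genes called lower and 17% called in either direction. NGG1 and HOS2 were each called in 1, SAS2 in 3 and SET2 in 0 of the 6 fits that left out an array. With the dye term SAS2 stayed called (limma adjusted p = 0.0483). NGG1, HOS2 and SET2 did not (limma adjusted p = 0.125, 0.0706 and 0.106).

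Since core histone messages are made during DNA replication, genes of the cell cycle were read beside them. Their counts stand beside the 9.52% of all genes called lower and the 7.44% called higher over both strains. Of 28 G1/S cyclin and replication genes, 1 fell over both strains, POL3, a DNA polymerase (-0.79 ± 0.17, SE, limma adjusted p = 0.0275, called in 1 of the 6 fits that left out an array), and 27 did not pass. The list median was -0.02, with array medians of -0.19, 0.26 and 0.25 in wild type and -0.10, -0.12 and 0.00 in the deletion strain. Of 13 G2/M genes 1 fell, HOF1, a cytokinesis protein (-0.86 ± 0.12, SE, limma adjusted p = 0.00822, called in all 6 of those fits). Of 12 M/G1 genes, CDC6, a replication licensing factor, rose (2.07 ± 0.29, SE, limma adjusted p = 0.00855, called in all 6 fits) and PCL9, a cyclin, fell (-0.57 ± 0.15, SE, limma adjusted p = 0.0462, called in 1 of the 6 fits). With the dye term HOF1 and CDC6 stayed called, and POL3 and PCL9 did not (limma adjusted p = 0.0683 and 0.0950). In the deletion strain alone HOF1 and SCW11 (-0.82) were called lower and CDC6 higher, beside 1.82% and 2.5% of all genes. These calls held in 3, 0 and 4 of the 6 fits that left out an array. CDC6 read 1.63, 1.36 and 0.67 in wild type and 3.49, 3.67 and 1.59 in the deletion strain. The M/G1 array medians were 0.01, 0.15 and 0.07 in wild type and -0.51, -0.35 and -0.33 in the deletion strain. No M/G1 gene passed limma's test of the strain difference. At an unadjusted p under 0.05 in that test there were 6 of the 12, beside 7.97% of all genes. The part of M/G1 genes in the histone ratios was not tested. In RNA from whole cultures, fewer cells in S phase and less histone message in each such cell cannot be told apart.

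Stress and growth genes changed on the same arrays. Of 11 stress and stationary phase genes 7 rose over both strains, among them HSP12, a membrane-protecting stress protein (3.35 ± 0.66, SE), and GPH1, glycogen phosphorylase (2.85 ± 0.35, SE). Of 16 ribosome biogenesis genes 9 fell, among them NSR1, nucleolin (-1.71 ± 0.17, SE), and NMD3, an export factor of the large subunit (-1.19 ± 0.15, SE). The counts of both lists stand beside the 7.44% of all genes called higher and the 9.52% called lower over both strains. HSP12 and GPH1 were called in 5, and NSR1 and NMD3 in all, of the 6 fits that left out an array, while the other 5 stress calls held in 1 to 3. Of the other ribosome biogenesis calls, NOP2, NOP7 and MRT4 held in all 6 fits, TSR1 in 3, DBP9 in 2, NOP58 in 1 and NOP1 in 0. With the dye term the calls of HSP26, TFS1, YGP1, HSP104, NOP1, NOP58, DBP9 and TSR1 were lost, and the other calls of these lists held. The stress medians were 3.71, 1.03 and 0.81 on wild-type replicates 1 to 3 and 0.98, 0.62 and 2.27 on the deletion replicates. The array with the lowest core histone median, wild-type replicate 1, had the highest stress median, and hap1 deletion replicate 2, with the next lowest histone median, had the lowest. The ribosome biogenesis medians were -0.83, -0.94 and -0.81 and then -0.45, -0.99 and -1.30, nearest to 0 on hap1 deletion replicate 1, where the histone median was also highest. Their part in the histone ratios was not tested.

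**Figure D4:**
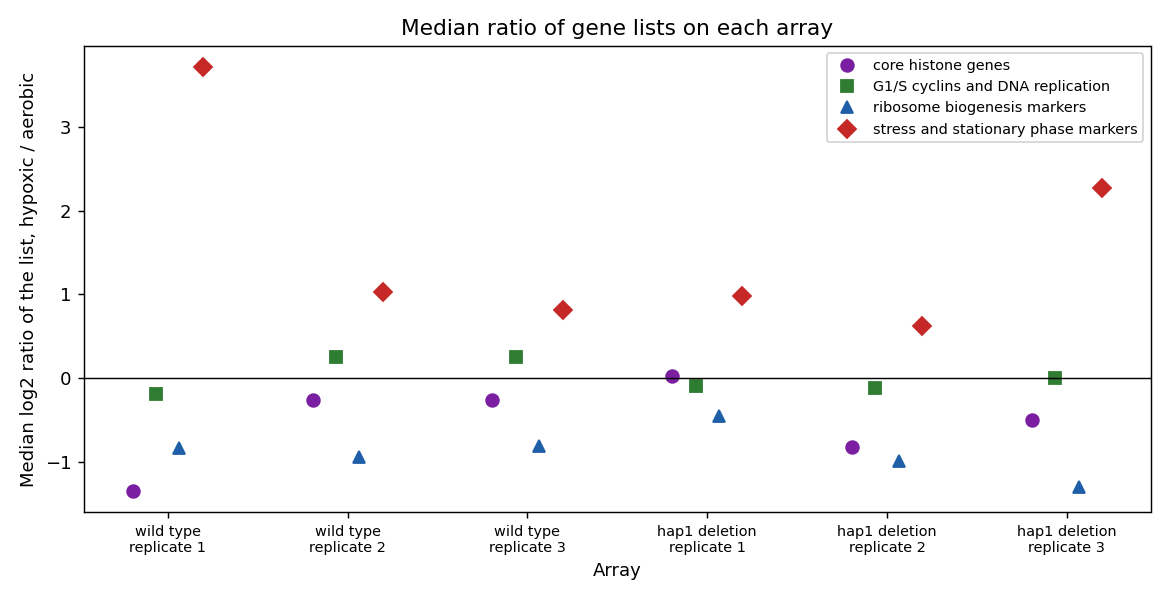
Median log2 ratio of hypoxic over aerobic RNA (vertical axis) of 4 gene lists on each of the 6 arrays (horizontal axis): 8 core histone genes, 28 G1/S and replication genes, 16 ribosome biogenesis genes and 11 stress genes. The core histone medians lie between -1.35 and 0.03, the G1/S medians between -0.19 and 0.26, and the stress medians above 0 on every array.

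Genes with a pattern like that of the core histones were sought among the 5292 other genes with all 6 values, by the root mean square difference of their log2 ratios from the core histone median over the 6 arrays. The 8 nearest were YBL086C (0.131), WSS1 (0.140), RPS12 (0.158), RPS26B (0.170), GUK1 (0.177), RPL38 (0.188), FAR10 (0.189) and RPL37A (0.196). Of these, RPS12, RPS26B, RPL38 and RPL37A encode ribosomal proteins, a group that makes up 2.40% of the genes compared when counted by symbol, WSS1 encodes a protease of DNA-protein crosslinks and GUK1 guanylate kinase. RPS12, for example, read -1.03, -0.36 and -0.25 in wild type and -0.04, -0.81 and -0.68 in the deletion strain. None of the 8 passed the test over both strains (limma adjusted p from 0.0622 to 0.146). The core genes make up the median they are set against, so that their own closeness is partly fixed in advance: on wild-type replicate 2 the median is the value of HTA1. With that limit, HHT1 lay nearest to the core median (0.0994, with none of the 5292 genes nearer) and HTA2 next (0.170 over its 5 arrays, with 4 nearer), whereas 1129 genes were nearer than HTB1 (0.592) and 1771 nearer than HHF1 (0.692). HTZ1 (0.985) and HHO1 (0.695), which took no part in the median, had 3437 and 1797 genes nearer than themselves.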

How the data were processed

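The authors deposited log10 ratios of aerobic over hypoxic RNA, in the direction of the titles. Per the labels, reverse transcription started at poly(A) tails. GenePix 5.0 read the spots, per the labels. Background correction, spot filters and normalization: not given in the sources used here. Base 10 was read from the values: 326 of 36472 nonzero values were ratios of whole numbers (denominator up to 30, relative tolerance 7e-08), against 3 with base 2. For this report they were put on a log2 scale with the sign turned, so that hypoxic RNA is the numerator. Symbols came from the RefSeq table of R64 (5707 of 6282 rows). Spot sequences and the array's build were not used here, so no sequence or coordinate is given and the promoter motif search was not made. The 6208 genes with at least 2 values per strain entered limma's lmFit and eBayes (version 3.58.1, R 4.3.3) with 1 residual spread for both strains, two-sided tests, Benjamini-Hochberg adjustment over all of them and a threshold of 0.05. In fits that left out an array, a gene needed 1 value per strain. The fit was checked on simulated data. Only 3 arrays per strain limit the precision. The histone genes and gene lists were chosen with earlier results of these data known. All 10 histone genes are named, and from other lists the called genes or a few examples. Deviations of same-numbered arrays of the 2 strains from their strain means correlated at r = -0.0213, 0.0599 and 0.131 over genes. Arrays with different numbers had r from -0.154 to 0.111. With 3 arrays per strain these values cannot show whether the numbers pair the arrays, and the main fit did not pair them.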

Additional observations from a re-analysis of the deposited data

How the results depend on the processing

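Of 576 values of the 10 histone genes recomputed under other settings, 557 stayed on their side of the threshold, 16 lost a call, 3 gained one and none that was called changed sign. Only HTA1 and HTB2 over both strains were called at first, so the 557 are mostly values that passed neither way. All 16 lost calls were of HTA1 and HTB2, whose calls together were lost more often than kept. Among values that passed neither way, 25 changed sign. The 2 calls over both strains became 1 with arrays centred on their medians or with eBayes trend and robust set, 0 with a dye term or the replicate block, and 0 to 3 without single arrays. Whether the replicate numbers pair the arrays of the 2 strains is not known, so the block is only an alternative setting. In the deletion strain array weights gave 1 call, HTA1 (adjusted p = 0.0442). No histone gene was called for the strain difference or in wild type under any setting. Over all genes, the 263 calls in wild type became 43 with the dye term, 2 with the replicate block, 682 with array weights, 8 with eBayes trend and robust set, 2 with each strain fitted alone, and 2 to 343 without single arrays. The 268 in the deletion strain became 123, 70, 667, 94, 84 and 30 to 237. The 22 strain differences became 7 with the dye term, 0 with the replicate block, 35 with array weights, 9 with trend and robust set, 3 with arrays centred and scaled, 13 with quantile normalization and 2 to 16 without single arrays. The 1053 over both strains became 517 with the dye term, 514 with the replicate block and 257 to 1051 without single arrays. With centring and scaling the deletion calls went from 155 higher and 113 lower (57.8% higher) to 154 and 71 (68.4%). That share was 74% with the dye term, 90% with the replicate block and 93.3% without hap1 deletion replicate 2. Beside the 0 strain differences of limma under the block, 456 of 6088 genes had an unadjusted p under 0.05. Without single arrays, the mean of HTB1 minus HTB2 ran from 0.69 to 0.86 and that of HTA1 minus HTA2 from -0.15 to 0.08. HHT1 minus HHT2 ran from -0.30 to -0.13 and HHF1 minus HHF2 from 0.09 to 0.42.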
